A study of Mus musculus with 15 samples.

Results

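Oxidative phosphorylation genes were followed in mouse liver as nuclear-encoded members of complexes I to V. Genes were taken by symbol: those beginning with Nduf, Uqcr or Atp5, the 4 genes Sdha to Sdhd, and those beginning with Cox4 to Cox8. This gave 89 of the 19938 genes measured by a probe set with a single symbol. They comprised 34 subunits of complex I, 7 complex I assembly factors, 4 subunits of complex II, 8 of complex III, 17 of complex IV, 17 of complex V, and Ndufa4 with its paralog Ndufa4l2. Ndufa4 is now known as a subunit of complex IV and was kept apart with its paralog. Cox7a2l, known as a supercomplex assembly factor, was counted by its symbol with the widespread subunits of complex IV. Cox7c and Ndufb4, whose probe sets also carried other genes' symbols, and the subunits encoded by mitochondrial DNA were not analysed here. Cyc1, a complex III subunit whose symbol lies outside the rule, was counted in a separate list given below.

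The 15 arrays each came from the liver of 1 male mouse aged 7.5 months (within 2.5 weeks). The wild-type mice were 129S1/SvlmJ and the null mice, 129S4/SvJae-Pparatm1Gonz/J, lacked PPARα, the nuclear receptor that is activated by fatty acids and by peroxisome proliferators. The mice were given corn oil alone (4 wild-type, 4 null) or di(2-ethylhexyl) phthalate (DEHP), a plasticizer, in corn oil at 1150 mg/kg/day by gavage for 4 days (4 wild-type, 3 null). The 2 genotypes were of different substrains, so genotype and substrain cannot be told apart. Animals are named by genotype and label number (WT-55, KO-121).

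In oxidative phosphorylation, complexes I and II pass electrons from NADH and succinate to ubiquinone, complex III passes them to cytochrome c, and complex IV passes them to oxygen. Complexes I, III and IV pump protons across the inner mitochondrial membrane, and complex V, the ATP synthase, uses the return flow to make ATP. Most core subunits carry the redox centres or the catalytic sites, while accessory or small subunits surround them and serve assembly and stability. Several complex IV subunits exist as isoforms made mainly in muscle, testis or lung. In liver, the chain takes up the electrons released by fatty acid oxidation, much of which is under PPARα.

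Values are log2 of the deposited intensity, and differences are differences of group means on that log2 scale ± standard error from limma, fitted to all 15 arrays. Adjustment of p-values was over the 19938 genes, and only genes with an adjusted p below 0.05 are called changed (rose, fell, higher, lower). Array medians ran from 44.4 to 47.53 intensity units, and arrays of a group correlated at 0.9876 to 0.9915 across probe sets. Such a correlation does not measure how far single genes vary between animals. Ppara itself read 9.78 ± 0.11 (SD, n = 4) in wild-type and 9.09 ± 0.11 (n = 4) in null controls, and differed by -0.69 ± 0.12 (limma adjusted p = 0.00645). Whether its probe set covers the disrupted part of the gene is unknown here, so this is no check of the knockout. Hepatocyte markers summed to 97470 to 99140 intensity units in wild-type controls and 92990 to 96360 in wild-type mice given DEHP. The sums were 92530 to 99630 in null controls and 96420 to 101800 in null mice given DEHP. KO-121, a null mouse given DEHP, stood apart in muscle genes: its 8 skeletal and heart muscle markers summed to 3333 against 419.3 to 497.7 in the other animals. These 8 include the members Cox6a2 and Cox8b, so the sum is not independent of them. Skeletal actin Acta1, which is not a member, read 10.46 against 6.29 to 6.68. KO-122, of the same group, had the lowest oxidative phosphorylation values, as given below. Results that rest on either animal are given without it. In whole liver, fewer hepatocytes and less RNA per hepatocyte cannot be told apart.

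Promoter sequences are shown for 4 members that represent the range of behaviour described below: Cox6b2, the member with the largest differences, Uqcr11 and Cox6a1, which were lower in null mice under DEHP, and the core subunit gene Uqcrc1, which was not called in any comparison. They come from RefSeq (GRCm38.p6) and run from 250 bases before the annotated start to 30 bases after it, 5′ to 3′ on the gene's strand. Capitals mark matches, on either strand, to 4 motifs: NRF1 (GCGCA and GCGC with any 1 base between), the ETS family factor GABP (CCGGAAG), PPAR-RXR (AGGNCA repeated after any 1 base) and ERR (TCAAGGTCA). NRF1, GABP and ERR are known regulators of respiratory chain genes. The PPAR-RXR and ERR motifs can share the letters AGGTCA.
Cox6b2, chr7:4753065-4753344, strand -: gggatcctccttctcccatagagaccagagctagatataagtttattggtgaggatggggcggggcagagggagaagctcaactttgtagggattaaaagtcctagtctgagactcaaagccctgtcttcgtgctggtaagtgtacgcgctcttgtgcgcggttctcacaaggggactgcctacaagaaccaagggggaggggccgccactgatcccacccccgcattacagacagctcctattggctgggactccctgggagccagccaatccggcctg
Uqcr11, chr10:80406792-80407071, strand -: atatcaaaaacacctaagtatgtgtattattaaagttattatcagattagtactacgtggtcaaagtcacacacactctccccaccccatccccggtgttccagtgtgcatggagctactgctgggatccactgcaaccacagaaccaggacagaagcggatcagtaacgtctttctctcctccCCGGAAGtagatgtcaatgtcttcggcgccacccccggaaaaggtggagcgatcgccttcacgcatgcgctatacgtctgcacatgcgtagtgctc
Cox6a1, chr5:115348929-115349208, strand -: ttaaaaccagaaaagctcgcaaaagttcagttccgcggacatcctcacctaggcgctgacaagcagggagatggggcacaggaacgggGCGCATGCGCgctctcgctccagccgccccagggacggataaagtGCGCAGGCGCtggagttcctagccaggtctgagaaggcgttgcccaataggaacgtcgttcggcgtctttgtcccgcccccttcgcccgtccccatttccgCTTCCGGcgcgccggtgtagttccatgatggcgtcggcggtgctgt
Uqcrc1, chr9:108936398-108936677, strand +: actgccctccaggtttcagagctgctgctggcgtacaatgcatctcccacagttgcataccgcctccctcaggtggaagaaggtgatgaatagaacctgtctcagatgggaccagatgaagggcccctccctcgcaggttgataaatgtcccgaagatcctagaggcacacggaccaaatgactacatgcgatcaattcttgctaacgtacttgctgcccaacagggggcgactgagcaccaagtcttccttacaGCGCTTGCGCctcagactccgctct

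Of these windows, that of Cox6a1 held 2 NRF1 matches and 1 ETS match, that of Uqcr11 held 1 ETS match, that of Uqcrc1 held 1 NRF1 match, and that of Cox6b2 held none. Of the 89 genes 73 had a window in the table, 78 windows in all. The NRF1 motif stood in 18 of the 78 windows (23.1%) against 4.41% of all 32851 windows of the same length. The ETS motif stood in 18 (23.1%) against 8.45% of all windows. The ERR motif stood in 1 member window (1.28%), that of the c-ring gene Atp5g3, against 0.417% of all windows. The PPAR-RXR motif stood in 0 of 78 member windows and in 0.362% of all. Members that were lower in null mice under DEHP had the NRF1 motif in 22.7% of 44 windows and the other members in 23.5% of 34, and the shares for the ETS motif were 27.3% and 17.6%. A match describes letters in these windows and is not a binding site.

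The 4 groups differed most in their DEHP-treated animals. In each animal every member's deviation from its mean over the 15 arrays was taken, and the median over the 89 members was computed. This median was 0.015 to 0.056 in the 4 wild-type controls and 0.062 to 0.161 in the 4 wild-type mice given DEHP. It was -0.085 to 0.07 in the 4 null controls, and -0.137, -0.319 and -0.118 in KO-121, KO-122 and KO-123. All 3 null mice given DEHP therefore lay below every other animal, with KO-122 the lowest, and the wild-type mice given DEHP lay above every wild-type control. Over all genes the same median stayed between -0.016 and 0.014 in every animal.

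**Figure D1:**
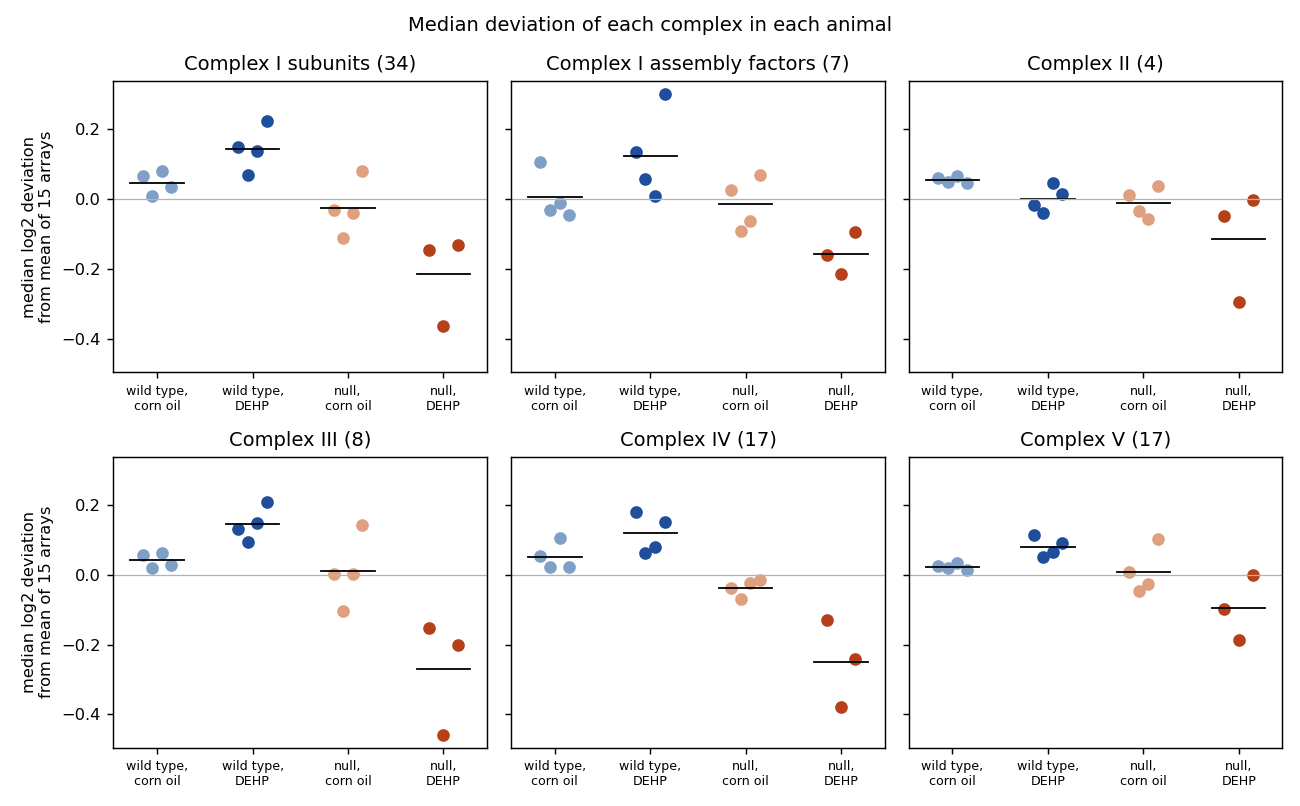
Median log2 deviation from the mean of the 15 arrays (vertical axis) of the genes of each complex in each animal (points), by group (horizontal axis), with the mean of the group as a line. In complexes I, III and IV the 3 null mice given DEHP lie at or below -0.13, under the animals of the other 3 groups, whereas in complex II only KO-122 (-0.294) lies far from the rest.

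By complex, the null mice given DEHP lay below all other animals in complexes I, III and IV. For complex III they were 0.02 to 0.063 in wild-type controls, 0.095 to 0.209 in wild-type mice given DEHP, -0.103 to 0.144 in null controls and -0.458 to -0.152 in null mice given DEHP. For complex IV the null mice given DEHP read -0.38 to -0.13, below the -0.068 to -0.016 of null controls. For complex II the null groups overlapped: KO-121 and KO-123, at -0.049 and -0.003, lay within the range of the null controls, -0.056 to 0.037, and the wild-type controls, 0.046 to 0.066, lay above every null animal. For complex V KO-123 read 0, within the -0.047 to 0.102 of null controls.

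The response to DEHP in wild-type liver was small and, with 1 exception, under 1.3-fold. Of the 89 members 3 rose (3.37%), against 2.29% of all genes called up, and 0 fell in limma, against 1.57% of all genes. At an unadjusted p below 0.05, 20 were higher and 2 lower, against 7.87% and 8.88% of all genes. The median member difference was 0.088, against -0.015 over all genes, and 70 members had a positive sign. The count of calls is thus near that of all genes. The genes that rose were Cox6b2, Ndufa3, an accessory subunit of complex I, and Ndufv2, an iron-sulfur core subunit of complex I.

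Cox6b2 encodes the isoform of complex IV subunit VIb known from testis, the counterpart of the widespread Cox6b1. Its log2 intensity was 6.89, 7.0, 7.02 and 6.58 in the wild-type controls and 8.35, 8.24, 8.71 and 8.37 in the wild-type mice given DEHP. It was 5.36, 5.37, 5.40 and 5.15 in the null controls and 5.44, 5.36 and 5.17 in the null mice given DEHP. The groups of wild-type mice did not overlap, every null animal lay below every wild-type animal, and the null groups overlapped. DEHP raised it by 1.54 ± 0.11 in wild-type liver (2.92-fold, limma adjusted p = 7.2e-07), and the difference in null liver was 0.00 ± 0.12 (adjusted p = 0.999). The interaction, the DEHP difference in null minus that in wild-type mice, was -1.54 ± 0.16 (adjusted p = 0.000197). Null controls lay below wild-type controls by -1.55 ± 0.11 (adjusted p = 1.45e-06), and under DEHP the difference was -3.09 ± 0.12 (adjusted p = 3e-10). In null mice every value lay below log2 of 6, the limit used here for dim genes, and whether it was above background could not be read from the values used here, so the sizes of both differences are those of the measured intensities. All of these calls were kept when any 1 animal was left out.

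For Cox6b1, the widespread form of the same subunit, the DEHP difference was 0.08 ± 0.08 (limma adjusted p = 0.7) in wild-type mice. Under DEHP it was lower in null than in wild-type mice by -0.49 ± 0.08 (adjusted p = 0.00115). Genes beside Cox6b2 on the chromosome were also read. Kmt5c, a histone methyltransferase gene, was lower in null than in wild-type controls by -0.42 ± 0.06 (adjusted p = 0.00201) and stood at 0.03 (adjusted p = 0.886) in the DEHP comparison of wild-type mice. Fam71e2 stood at 0.01 (adjusted p = 0.972) and -0.02 (adjusted p = 0.924) in the same comparisons.

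Ndufa3 read 9.75, 9.71, 9.68 and 9.74 in the wild-type controls and 9.95, 9.90, 9.93 and 10 in the wild-type mice given DEHP. These groups did not overlap, and the rise was 0.23 ± 0.05 (limma adjusted p = 0.0259). Ndufv2 read 9.90, 10.10, 10.05 and 10.03, then 10.25, 10.23, 10.28 and 10.23, a rise of 0.23 ± 0.06 (adjusted p = 0.0377). Of the 8 fits that left out an animal of either group, each of these calls held in only 1, that of Ndufa3 without WT-57 and that of Ndufv2 without WT-54. Ndufaf2, which assists the assembly of complex I, stood at 0.34 ± 0.09 (adjusted p = 0.0543) and Atp5mpl, a small membrane subunit of complex V, at 0.28 ± 0.08 (adjusted p = 0.0773). By complex, the median wild-type difference was 0.093 in complex I, -0.006 in complex II, 0.088 in complex III, 0.104 in complex IV and 0.052 in complex V. Groups did not overlap for 20 members that were higher after DEHP and for 3 that were lower, against 6.1% and 5.77% of all genes. With each array centred on its median, the split of calls over all genes moved from 456 up and 314 down to 500 up and 201 down, and the member median became 0.114. With quantile normalization between arrays it became 0.038.

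In null liver the sign was the other way for most members. Of the 89 members 7 fell with DEHP (7.87%), against 0.311% of all genes, and 0 rose in limma, against 0.16%. At an unadjusted p below 0.05, 45 were lower and 2 higher, against 5.83% and 6.46% of all genes, and the median difference was -0.165 (0.892-fold), against 0.014 over all genes. The 7 genes encode small subunits: Atp5k, Atp5l and Atp5mpl of the membrane part of complex V, Atp5e, the epsilon subunit of its F1 part, Uqcr11 and the hinge protein Uqcrh of complex III, and Ndufa13, an accessory subunit of complex I. Their differences ran from -0.64 (Atp5e) to -0.39 (Ndufa13), with adjusted p from 0.0322 to 0.0474.

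Uqcr11 read 9.88, 9.65, 9.89 and 10.01 in the null controls (KO-115 to KO-118) and 9.51, 8.98 and 9.39 in KO-121, KO-122 and KO-123. The groups did not overlap, KO-122 was the lowest, and the difference was -0.56 ± 0.11 (0.676-fold, limma adjusted p = 0.0383). Atp5e read 10.13, 9.89, 10.24 and 10.37, then 9.79, 9.22 and 9.55, a difference of -0.64 ± 0.13 (0.643-fold, adjusted p = 0.0408). Uqcrh read 11.50, 11.39, 11.51 and 11.65, then 11.28, 10.65 and 11.03, a difference of -0.53 ± 0.11 (adjusted p = 0.045). In both genes KO-122 was again the lowest and KO-121 the nearest to the controls.

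These calls were at the edge of the threshold. All 7 held without KO-121 or without KO-116, and none held without KO-122, KO-123, KO-115, KO-117 or KO-118. Without KO-122 the median difference became -0.103, and without KO-121, where 14 members were called, -0.195. Groups did not overlap for 32 members that were lower after DEHP and for 4 that were higher, against 4.42% and 5.57% of all genes. With arrays centred on their medians, the split of calls over all genes moved from 32 up and 62 down to 15 and 17, and 0 members were called, with 45 below an unadjusted p of 0.05.

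The null response varied with role, given here as a description without a test between roles. The median difference was -0.444 in the 5 membrane subunits of complex V, -0.321 in the 10 widespread subunits of complex IV, -0.278 in the 5 small subunits of complex III and -0.239 in the 28 accessory subunits of complex I. It was 0.104 in the 3 core subunits of complex III, 0.016 in the 5 F1 subunits of complex V and -0.034 in the 6 core subunits of complex I. Ndufs1, the largest core subunit of complex I, read 10.28, 10.28, 10.17 and 10.38 in null controls and 10.43, 10.46 and 10.69 after DEHP, which did not overlap. Its difference, 0.25 ± 0.07, did not pass the threshold (limma adjusted p = 0.147).

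**Figure D2:**
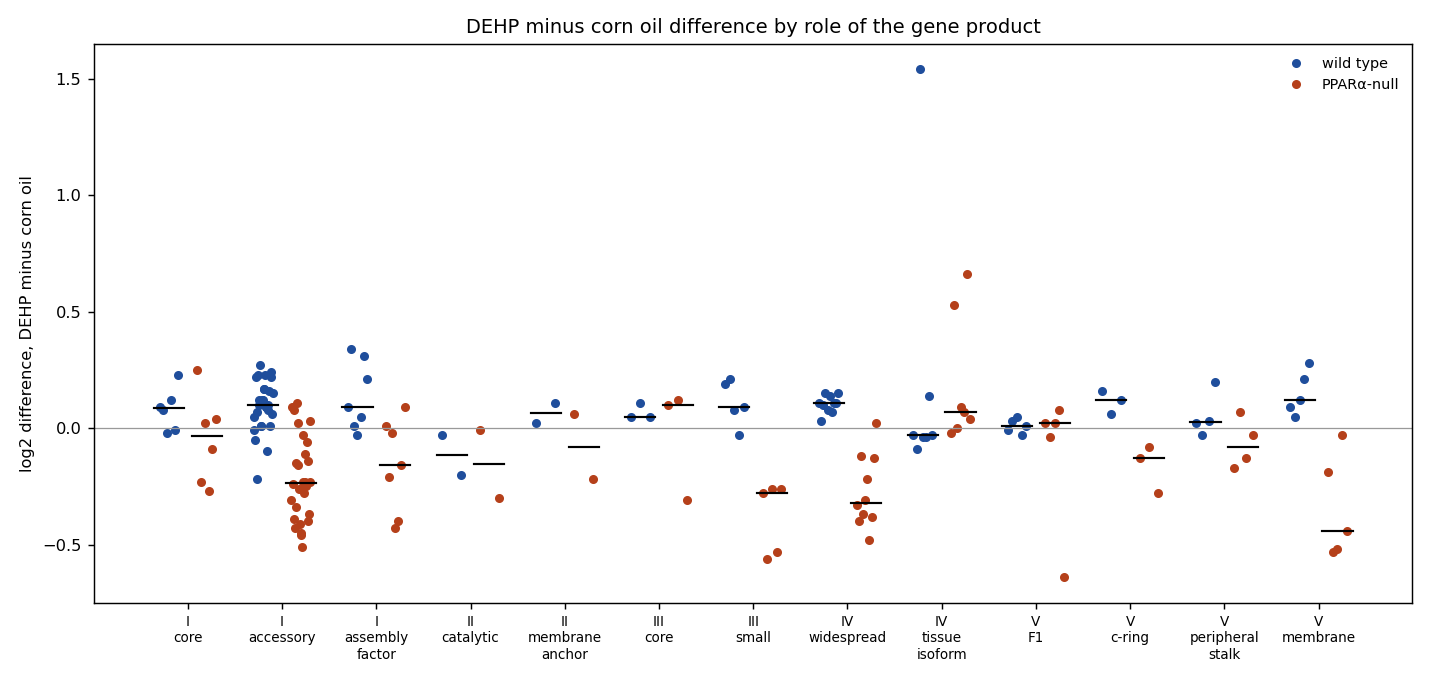
DEHP minus corn oil difference on the log2 scale (vertical axis) for each gene, grouped by complex and role (horizontal axis), in wild-type mice (blue) and null mice (red-brown), with the median of each set as a line. The null medians of the small, widespread and membrane subunits lie between -0.278 and -0.444, those of the complex III core and F1 subunits at 0.104 and 0.016, and Cox6b2 is the blue point at 1.54.

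The difference of these responses was called for 6 members, all negative (6.74%), against 0.562% of all genes, and for 0 positive in limma, against 0.336%. At an unadjusted p below 0.05, 50 were negative and 1 positive, against 6.35% and 7.04% of all genes, and the median was -0.281 against 0.028 over all genes. Besides Cox6b2 the genes were Atp5mpl, Uqcr11, Ndufa3, Cox4i1 and Cox6a1. The last pair encode widespread subunits of complex IV, Cox4i1 the largest of its nuclear-encoded subunits.

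Atp5mpl read 11.42, 11.53, 11.34 and 11.45 in wild-type controls and 11.75, 11.71, 11.64 and 11.77 in wild-type mice given DEHP. In null mice it read 11.44, 11.29, 11.48 and 11.61 in controls and 11.17, 10.79 and 11.07 after DEHP. DEHP-treated and control animals did not overlap in either genotype, with opposite directions, and the interaction was -0.73 ± 0.12 (limma adjusted p = 0.015). It was called in all 15 fits that each left out 1 animal, as was that of Cox6b2. The interaction was -0.77 ± 0.15 (adjusted p = 0.0249) for Uqcr11, called in 9 of 15 such fits, -0.38 ± 0.08 (adjusted p = 0.0336) for Ndufa3, called in 5, -0.52 ± 0.12 (adjusted p = 0.0478) for Cox6a1, called in 3, and -0.44 ± 0.10 (adjusted p = 0.0478) for Cox4i1, called in 2. Without KO-122, 2 of the 6 remained called, and likewise 2 without KO-115, WT-56, WT-53 or WT-54. Leaving out any other animal kept 3 to 6. Over all genes the split of interaction calls was 67 up and 112 down, and 30 and 98 with arrays centred on their medians.

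Between the controls of both genotypes 1 member differed. Cox6b2 was the only 1 of 89 members called lower (1.12%), against 0.547% of all genes, and 0 were called higher in limma, against 0.642%. At an unadjusted p below 0.05, 4 members were lower and 0 higher, against 5.82% and 6.13% of all genes. Groups did not overlap for 7 lower and 0 higher members, against 3.67% and 4.06%. The median member difference was -0.055, against -0.008 over all genes. Ndufb3, an accessory subunit of complex I, came next and read 8.20, 8.31, 8.35 and 8.34 in wild-type and 8.05, 7.71, 8.04 and 8.18 in null controls. Its difference was -0.31 ± 0.10 and did not pass the threshold (limma adjusted p = 0.184). By complex, medians ran from -0.075 in complex III to -0.015 in complex V.

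Under DEHP, null and wild-type livers differed in 51 of 89 members. Of the 89, 50 (56.2%) were lower in null mice, against 5.61% of all genes, and 1, Cox6a2, was higher (1.12%), against 5.09%. The median difference was -0.313 (0.805-fold), against 0.024 over all genes, and the groups did not overlap for 59 members that were lower, against 9.51% of all genes, and for 1 that was higher, against 11%. At an unadjusted p below 0.05, 60 were lower and 1 higher, against 10.5% and 12.5% of all genes. This comparison shares its animals with the responses above, so it is not a separate line of evidence. Over all genes the split of calls was 1014 higher and 1119 lower, and 532 and 1372 with arrays centred on their medians, where 53 members were lower with a median of -0.366. With quantile normalization 51 members were lower and 0 higher.

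**Figure D3:**
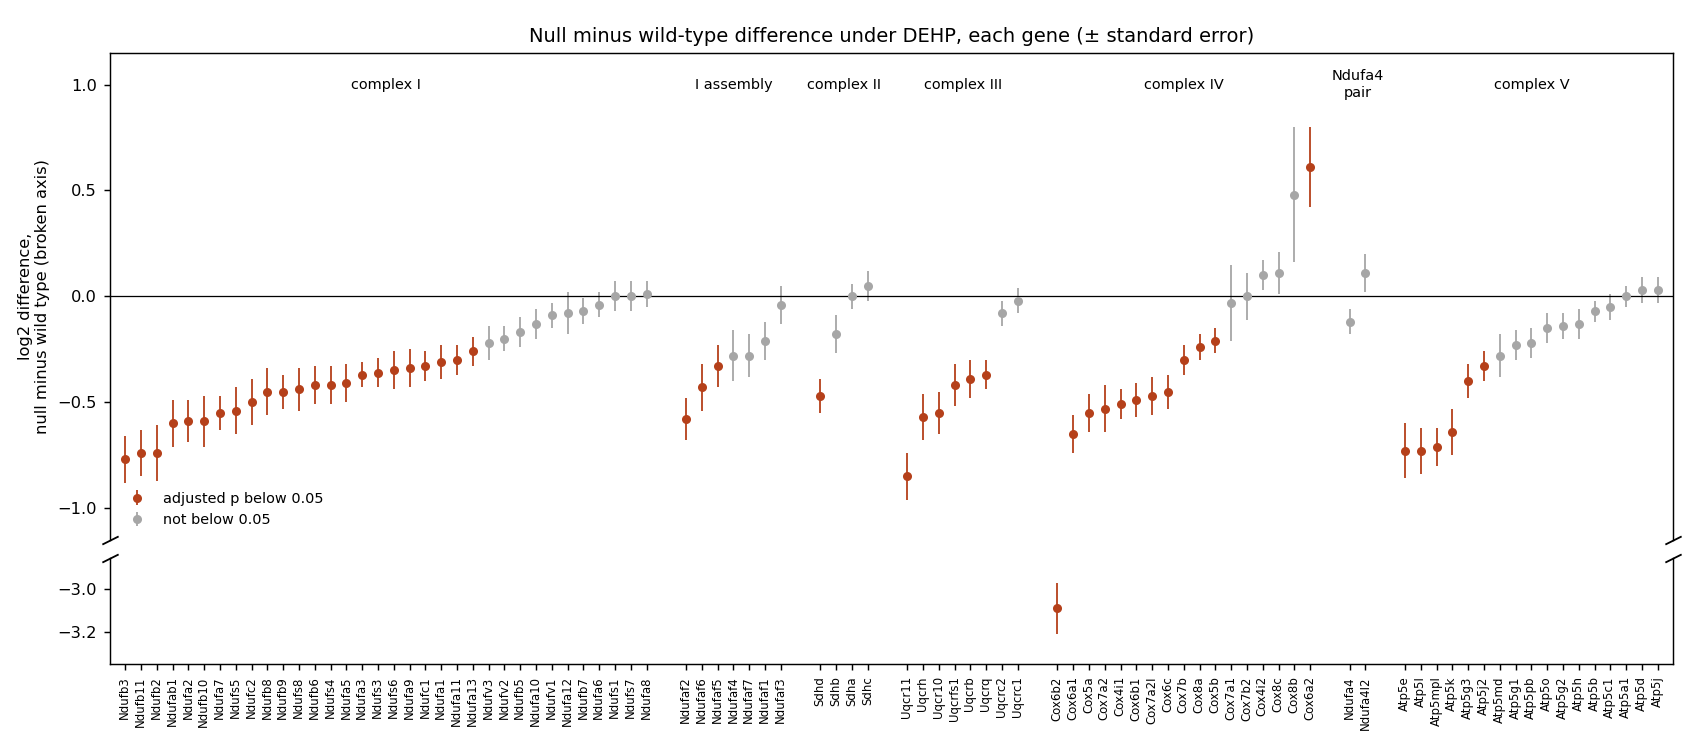
Null minus wild-type difference under DEHP on the log2 scale ± standard error (vertical axis, broken to show Cox6b2) for each of the 89 genes (horizontal axis), ordered by size within each complex, with called genes in red-brown. Most called genes lie between -0.2 and -0.9, Cox6b2 lies at -3.09, and Cox6a2 at 0.61 is the 1 called above 0.

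Complex I was lower across most of its subunits. Of 34 subunits 23 were called lower (67.6%) and 0 higher, with 26 lower and 0 higher at an unadjusted p below 0.05, and the median was -0.354 (0.783-fold). The accessory subunits held 21 of these calls among 28, with a median of -0.387, and the 6 core subunits held 2, with a median of -0.144. Ndufb3 read 8.50, 8.31, 8.56 and 8.75 in wild-type mice given DEHP and 7.86, 7.67 and 7.74 in null mice given DEHP. These groups did not overlap, and the difference was -0.77 ± 0.11 (0.584-fold, limma adjusted p = 0.000278). Ndufb11 read 10.81, 10.73, 10.58 and 10.80 against 10.14, 9.64 and 10.19, a difference of -0.74 ± 0.11 (adjusted p = 0.000436).

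Other accessory subunits included Ndufb2 at -0.74, Ndufab1, the mitochondrial acyl carrier protein, at -0.60, Ndufa2 at -0.59 and Ndufa7 at -0.55, all called. Among the core subunits, Ndufs3 was lower by -0.36 ± 0.07 (limma adjusted p = 0.00346). Ndufs1 read 10.42, 10.5, 10.62 and 10.58 in wild-type mice and 10.43, 10.46 and 10.69 in null mice, which overlapped throughout, and its difference was 0.00 ± 0.07 (adjusted p = 0.983). Ndufv1, which binds NADH, stood at -0.09 ± 0.06 (adjusted p = 0.459). Of the 7 assembly factors 3 were lower, led by Ndufaf2 at -0.58 ± 0.10 (adjusted p = 0.00165).

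In complex II 1 of 4 subunits was lower. Sdhd, a membrane anchor, read 10.52, 10.52, 10.56 and 10.46 in wild-type mice and 10.22, 9.83 and 10.09 in null mice. The groups did not overlap, and the difference was -0.47 ± 0.08 (0.723-fold, limma adjusted p = 0.000921). The catalytic subunits Sdha and Sdhb stood at 0.00 ± 0.06 (adjusted p = 0.979) and -0.18 ± 0.09 (adjusted p = 0.242), and groups overlapped in both.

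In complex III 6 of 8 subunits were lower (75%), with a median of -0.403. All 5 small subunits were among them, with differences from -0.85 to -0.37. Uqcr11 read 10.23, 10.12, 10.04 and 10.18 in wild-type mice given DEHP against 9.51, 8.98 and 9.39 in null mice given DEHP, a difference of -0.85 ± 0.11 (0.555-fold, limma adjusted p = 0.00018). The Rieske iron-sulfur protein Uqcrfs1 was the 1 core subunit called, at -0.42 ± 0.10 (adjusted p = 0.0102). Uqcrc1, a core structural subunit, read 11.26, 11.28, 11.41 and 11.28 against 11.28, 11.22 and 11.36. These values overlapped, and its difference was -0.02 ± 0.06 (adjusted p = 0.897).

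In complex IV the 10 widespread subunits were all lower (100%), with differences from -0.65 to -0.21 and a median of -0.48 (0.717-fold). For each of the 10 the groups did not overlap. Cox6a1 read 12.00, 11.85, 11.80 and 11.96 in wild-type mice and 11.38, 11.03 and 11.36 in null mice, a difference of -0.65 ± 0.09 (0.639-fold, limma adjusted p = 0.000189). Cox4i1 read 11.51, 11.41, 11.40 and 11.41 against 11.07, 10.75 and 10.94, a difference of -0.51 ± 0.07 (adjusted p = 0.000336). KO-122 was the lowest animal in both genes.

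Of the 7 tissue isoforms of complex IV 1 was lower, Cox6b2, and 1 higher, Cox6a2, the muscle form of subunit VIa. Cox6a2 read 6.13, 5.99, 6.03 and 5.96 in wild-type mice given DEHP and 7.34, 6.37 and 6.2 in KO-121, KO-122 and KO-123. The high value belonged to KO-121, the animal with the muscle gene signal. Cox6a2 and Cox8b are themselves in that marker sum, while Acta1, also high in KO-121, is not a member. The difference was 0.61 ± 0.19 (limma adjusted p = 0.0476) with that animal and 0.26 (adjusted p = 0.134) without it, and it was called in 1 of the 7 fits that each left out an animal. Cox8b, another muscle isoform, read 6.93 in KO-121 and 5.09 and 4.91 in the other 2, and was not called (0.48 ± 0.32, adjusted p = 0.434). Without KO-121 its difference was -0.16 (adjusted p = 0.572). Cox7a1, the muscle form of subunit VIIa, read 5.88 to 6.02 in wild-type mice given DEHP and 6.59, 5.43 and 5.65 in KO-121, KO-122 and KO-123. It was not called with all animals (-0.03 ± 0.18, adjusted p = 0.947) and was lower by -0.38 without KO-121 (adjusted p = 0.00965). Cox4i2, Cox7b2 and Cox8c stood between 0.00 and 0.11 and were not called with all animals or in any fit that left out 1. The widespread counterparts Cox4i1, Cox7a2, Cox7b and Cox8a stood at -0.51, -0.53, -0.30 and -0.24 and were all called.

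**Figure D4:**
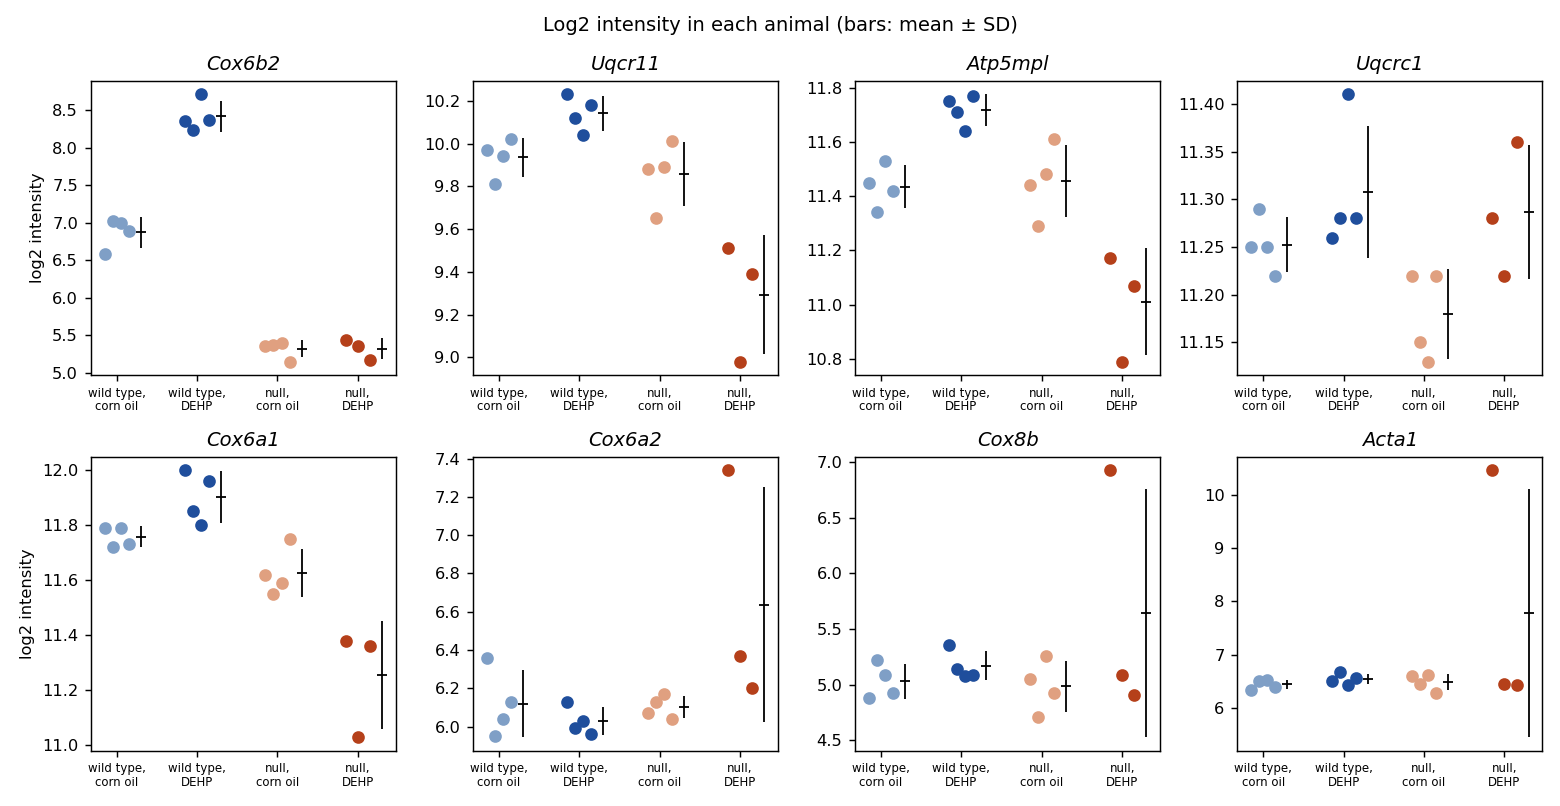
Log2 intensity (vertical axes, each with its own range) of 7 oxidative phosphorylation genes and of skeletal actin Acta1 in each animal (points), by group (horizontal axes), with mean ± SD beside the points. Uqcr11, Atp5mpl and Cox6a1 are lowest in the 3 null mice given DEHP. Cox6b2 differs between genotypes and, in wild-type mice only, between treatments. Cox6a2, Cox8b and Acta1 share 1 high animal, KO-121.

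In complex V 6 of 17 subunits were lower (35.3%) and 0 higher in limma, with 10 lower and 0 higher at an unadjusted p below 0.05. The median was -0.215 (0.861-fold). Of the 5 membrane subunits 4 were lower, with a median of -0.637 over the 5. Atp5mpl was lower by -0.71 ± 0.09 (0.613-fold, limma adjusted p = 0.000154), Atp5l by -0.73 ± 0.11 (adjusted p = 0.000524) and Atp5k by -0.64 ± 0.11 (adjusted p = 0.00109). Of the F1 part, Atp5e was lower by -0.73 ± 0.13 (adjusted p = 0.00169).

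The catalytic F1 subunits were not called. Atp5a1, the alpha subunit, read 12.13, 12.12, 12.19 and 12.09 in wild-type mice and 12.12, 12.12 and 12.17 in null mice, a difference of 0.00 ± 0.05 (limma adjusted p = 0.984). Atp5b, the beta subunit, stood at -0.07 ± 0.05 (adjusted p = 0.477). Of the genes for the c-ring, the rotor subunit, Atp5g3 was lower by -0.40 ± 0.08 (adjusted p = 0.00387), while Atp5g1 at -0.23 ± 0.07 (adjusted p = 0.0575) and Atp5g2 at -0.14 ± 0.06 (adjusted p = 0.167) were not called. Of the 4 peripheral stalk subunits 0 were called by the probe sets used, and 1 was lower at an unadjusted p below 0.05. Ndufa4 and Ndufa4l2 stood at -0.12 ± 0.06 (adjusted p = 0.225) and 0.11 ± 0.09 (adjusted p = 0.543).

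The count under DEHP depended on KO-122. Without it 32 members were lower and the median was -0.243, with 13 calls in complex I, 1 in complex II, 4 in complex III, 8 in complex IV and 5 in complex V. Without KO-121 47 were lower and 0 higher, with a median of -0.34. In all 7 fits that left out 1 animal of either group 32 of the 50 stayed called, among them Uqcr11, Ndufb3, Ndufb11, Cox4i1, Cox6a1, Atp5mpl, Atp5e and Sdhd.

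A second reading came from other probe sets. Of the 89 members 17 had 25 further probe sets. Among the called members 12 had 17 further probe sets, of which 17 had the same sign and were called as well. Among the members not called 5 had 8 further probe sets, of which 2 were called lower: 1 of Atp5pb, a peripheral stalk subunit, by -0.21 (adjusted p = 0.0196), and 1 of Atp5md, a membrane subunit, by -0.38 (adjusted p = 0.0335). Dim members numbered 7, with a mean log2 below 6 (Cox4i2, Cox7a1, Cox7b2, Cox8b, Cox8c, Ndufa4l2 and Ndufaf5), and of the 82 others 49 were lower. Across the members the difference under DEHP and the mean log2 intensity had a Spearman rho of 0.06 (n = 89), and of 0.29 among the 82, given as a description, since the genes share the same animals.

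The lower values were not limited to respiratory chain genes. Of 77 mitochondrial ribosomal protein genes 38 were lower in null mice under DEHP (49.4%, median -0.255) and 0 higher, and of 40 proteasome subunits 24 (60%, median -0.266) and 0 higher. Of 55 cytosolic ribosomal protein genes, a list added after values were seen, 28 were lower (50.9%, median -0.269). At an unadjusted p below 0.05, 0 mitochondrial ribosomal, 0 proteasome and 1 cytosolic ribosomal gene were higher in limma. Without KO-122 the lower genes numbered 20, 11 and 19 in the same order. In null mice DEHP lowered 0, 1 (2.5%) and 7 (12.7%) in that order, beside 7.87% of members and 0.311% of all genes. Without KO-122 it lowered 0 of each list. The interaction was negative for 1 (1.3%), 5 (12.5%) and 4 (7.27%), beside 6.74% and 0.562%. In wild-type mice 8 (10.4%), 6 (15%) and 2 (3.64%) rose with DEHP, beside 3.37% and 2.29%. In fits that left out a wild-type animal, 1 to 4, 1 to 5 and 1 to 3 rose. The difference of these lists from the 89 members was not tested.

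Some markers of other liver cells differed in the same comparison. Of 10 endothelial markers 7 were higher in null mice under DEHP (70%, against 5.09% of all genes), and their summed intensity was 3190 to 3592 in wild-type and 4061 to 4427 in null mice. In the controls these sums overlapped, at 3591 to 4070 and 3704 to 4022. Of the 10, 4 were called without KO-122 and 5 in each of the other 6 fits that left out an animal. With DEHP the median of the 10 was -0.124 in wild-type and 0.127 in null mice. In wild-type mice Stab2 fell by -0.33 ± 0.06 (limma adjusted p = 0.00337), called in all 8 fits. Eng fell by -0.29 ± 0.07 (adjusted p = 0.0421), called in 2 of the 8. In null mice 0 of the 10 were called. The interaction of Stab2 was 0.43 ± 0.08 (adjusted p = 0.0234), called in 8 of 15 fits. Of 10 stellate cell markers 4 were higher, with sums of 2486 to 2567 and 2872 to 3937. Their sums were also apart in the controls, at 2500 to 2781 in wild-type and 3188 to 4451 in null mice, where 1 marker was called. Of the 4, Pdgfrb was called in 1 and Dcn in 2 of the 7 fits that left out an animal. Reln, another of the 4, fell with DEHP in wild-type mice by -0.50 ± 0.10 (limma adjusted p = 0.00762), called in all 8 fits. Of 10 Kupffer cell or macrophage markers 1, Csf1r, was higher, with sums of 2118 to 3212 and 2876 to 3456, and it was not called without KO-121 or without KO-122 (highest limma adjusted p = 0.0857). Of 9 hepatocyte markers 1, Hnf4a, was higher, with sums of 92990 to 96360 and 96420 to 101800, and it was not called without KO-122 (adjusted p = 0.0627). Another, Cps1, fell with DEHP in wild-type mice by -0.34 ± 0.08 (limma adjusted p = 0.019), called in 3 of the 8 fits that left out an animal. Of 5 cholangiocyte, 6 lymphocyte and 4 adipocyte markers 0 were called. Of 5 neutrophil markers 1, Ly6g, was higher, called in 3 of the 7 fits, while the median of the 5 was -0.104. Ly6g was dim, with a mean log2 of 3.99 in null and 3.69 in wild-type mice. S100a8, also of the 5, rose with DEHP in wild-type mice by 1.78 ± 0.24 (limma adjusted p = 0.00061), called in all 8 fits. Its mean log2 went from 4.99 to 6.77. Of 2 erythroid markers 1, Alas2, was higher in null mice under DEHP, called in all 7 fits. The part of these cells in the result was not tested.

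Other genes of the pathway were counted by list. Of 15 electron carrier and other complex genes 7 were lower in null mice under DEHP (46.7%, against 5.61% of all genes) and 0 higher, with 6 or 7 called whichever animal was left out. The list also holds genes of coenzyme Q synthesis, of which Coq6, Coq3 and Coq5 were among the 7. Cyc1 of complex III, also in the list, was not called (-0.14 ± 0.06, limma adjusted p = 0.16). In wild-type mice 3 of the 15 rose with DEHP, and 0 without WT-55. Cycs, cytochrome c, read 9.71, 10.10, 9.76 and 9.85 in wild-type controls and 10.15, 10.20, 10.42 and 10.53 after DEHP, and rose by 0.47 ± 0.10 (limma adjusted p = 0.0144), in 6 of the 8 fits that left out an animal. In null mice it stood at -0.19 ± 0.11 (adjusted p = 0.525). The interaction was -0.66 ± 0.15 (adjusted p = 0.048), called in 3 of 15 such fits and not without KO-122 (adjusted p = 0.116). Etfdh, which passes electrons from fatty acid oxidation to ubiquinone, was already lower in null controls by -0.69 ± 0.09 (adjusted p = 0.00067), and Etfb, of the flavoprotein before it, by -0.64 ± 0.06 (adjusted p = 1.12e-05).

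Of 33 assembly factors outside the symbol rule 11 were lower in null mice under DEHP (33.3%) and 0 higher, and 6 were lower without KO-122. Cox17, a copper chaperone of complex IV, rose with DEHP in wild-type mice by 0.36 ± 0.08 (limma adjusted p = 0.019), called in 3 of the 8 fits that left out an animal (adjusted p = 0.0618 without WT-56). Its interaction was -0.68 ± 0.12 (adjusted p = 0.0163), called in 14 of 15 such fits and not without KO-122 (adjusted p = 0.0542). Of 16 regulators 2 were lower under DEHP (12.5%), and 0 without KO-122. These were Tfam, the mitochondrial transcription factor, by -0.32 ± 0.08 (adjusted p = 0.0143), and Esrrg by -0.43 ± 0.12 (adjusted p = 0.0324), at adjusted p = 0.102 and 0.201 without that animal. Esrrg was already lower in null controls by -0.67 ± 0.11 (limma adjusted p = 0.00582), called in all 8 fits that left out an animal. Its mean log2 was 5.65 in null and 6.32 in wild-type controls, and 5.81 and 6.25 under DEHP. The null means thus lay below the limit of 6 for dim genes. Ppargc1a, the coactivator of mitochondrial biogenesis, stood at 0.22 ± 0.13 (adjusted p = 0.367).

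Of 11 genes of proton leak and exchange 2 were lower in null mice under DEHP (18.2%), Higd1a and Atpif1, the first not without KO-122 (limma adjusted p = 0.108). Atpif1, the inhibitor of complex V, rose with DEHP in wild-type mice by 0.40 ± 0.08 (adjusted p = 0.0135), though not without WT-53 (adjusted p = 0.0523), and was lower in null mice under DEHP by -0.52 ± 0.09 (adjusted p = 0.00166). Of 13 citric acid cycle genes 5 rose with DEHP in wild-type mice (38.5%, against 2.29% of all genes), led by Suclg2 at 0.36 ± 0.06 (adjusted p = 0.00397), and 3 to 5 rose when an animal was left out. Under DEHP 3 of the 13 were lower in null mice (23.1%), and 1 without KO-122. They were led by Suclg1 at -0.71 ± 0.08 (adjusted p = 6.67e-05), called in all 7 fits that left out an animal. Idh2 was higher at 0.26 ± 0.07 (adjusted p = 0.0292), and a fit that left out an animal called it in 0 of 7 cases (highest adjusted p 0.0872). It was already higher in null controls by 0.41 ± 0.07 (limma adjusted p = 0.00474), and rose with DEHP in wild-type mice by 0.33 ± 0.07 (adjusted p = 0.0106). Both of these calls held in all 8 fits that left out an animal. The regulator and proton leak counts rest on 2 genes each, beside the 5.61% of all genes. In null mice DEHP called 0 genes of these 5 lists in limma.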

How the data were processed

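Liver RNA of 15 mice was measured on single-colour expression arrays, 1 array per animal, per the labels' protocols from 300 ng of RNA. The authors deposited linear intensity values, whose normalization method was not given in the sources used here. They were log2-transformed with no further step. Of 35494 probe sets 21789 had 1 gene symbol, and per gene the probe set with the highest mean was kept (19938 genes). Symbols are those of RefSeq, found through the gene identifiers of the platform annotation (21698 probe sets matched). Probe sets without a match kept the platform symbol. Limma 3.58.1 in R 4.3.3 fitted 1 mean per group (residual df 11, prior df 4.68), with Benjamini-Hochberg adjustment over all genes at 0.05, and was tested on simulated data. The members and lists were chosen with earlier results of these data known. Named genes were the called members (at most 25 a comparison), the first of each complex, tissue isoforms, 1 or 2 core genes a complex, and up to 4 called genes a list. Promoters were searched in Python 3.11.15. Alternatives were scaling, pseudocount, dim filter, probe set choice, prior, array weights, fewer groups, and leaving out each animal.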

Additional observations from a re-analysis of the deposited data

Results flagged for a closer look

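Among 288 sets of 4 values, each a member or the median of a complex or of all members in 1 group, 18 held 1 value far from the other 3, where chance gives about 1 in 20. In wild-type controls these log2 intensities were, for WT-53, Atp5e at 10.1, Atp5g1 at 10.17, Cox7a2l at 9.45 and Sdhd at 10.35, all lowest. For WT-52 they were Ndufa10 at 11.28, Ndufab1 at 9.75 and Uqcrfs1 at 10.07, and for WT-55 Cox8a at 9.71, all highest. In wild-type mice given DEHP they were Cox4i1 at 11.51 (highest) and Cox8c at 5.31 (lowest) in WT-56, and Uqcrb at 11.21 (lowest) and Uqcrc1 at 11.41 (highest) in WT-58. In null controls they were Cox6b2 at 5.15 (lowest), Ndufb9 at 10.41 and Ndufs6 at 9.95 (both highest) in KO-118, Ndufa2 at 9.46 (lowest) in KO-116 and Ndufaf5 at 5.89 (highest) and Ndufs7 at 9.58 (lowest) in KO-115. The group of 3 null mice given DEHP was too small for this comparison.

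The effect of DEHP differed between the genotypes by the interaction test in limma for 6 members. The interaction was -1.54 for Cox6b2, -0.77 for Uqcr11, -0.73 for Atp5mpl, -0.52 for Cox6a1, -0.44 for Cox4i1 and -0.38 for Ndufa3.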

How the results depend on the processing

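No called difference of the members followed changed sign under the alternatives. Among differences that were not called, 58 turned sign when an animal was left out, by up to 0.26 in size afterwards, and 20 under the other settings, by up to 0.06. Without KO-121 those of Cox7a1 in null mice (-0.26) and Cox8b under DEHP (-0.16) were among them. Of the values recomputed under settings other than leaving out an animal 2437 stayed on their side of the threshold, 91 passed it and 34 fell short of it. Under these settings 41 to 57 members were called under DEHP, 51 as reported, of which 50 were lower, and 1 was called in controls. The calls for the response in null mice, 7 as reported, were 1 with array weights, 0 with centred arrays, 0 with only the 2 groups (40 at an unadjusted p below 0.05), 23 with genes of mean log2 of at least 6 only, 15 with a pseudocount of 16 and 17 with a trended and robust prior. In wild-type mice, 3 as reported, they were 8 with array weights, 8 with the dim filter, 7 with the pseudocount and 8 with the prior, and the median difference was 0.038 with quantile normalization. For the interaction, 6 as reported, they were 26, 15 and 16 with the filter, the pseudocount and the prior. The cause was not tested.

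Leaving out 1 animal in turn gave 0 to 14 called members for the null response, 1 to 3 for the wild-type response, 2 to 15 for the interaction, 1 to 1 in controls and 32 to 52 under DEHP. The gene lists outside the members were recomputed in the same way, an alternative chosen after seeing the data, and their values stand beside their counts. The median differences ranged from -0.195 to -0.103, 0.068 to 0.105, -0.339 to -0.225, -0.093 to -0.023 and -0.369 to -0.243 in the same order. No paired analysis was possible because the groups share no replicate numbers. The number of arrays limits what can be detected. Whether dim genes were above background could not be read from the values used here.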
